A study of Rattus norvegicus with 54 samples.

Results

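The genes described here encode the nuclear-made parts of the mitochondrial respiratory chain and of ATP synthase, measured in epididymal white adipose tissue, gastrocnemius muscle and liver of male Sprague-Dawley rats. They were taken by symbol: every single-name probe whose gene symbol begins with Nduf a, b, c, s or v, Uqcr, Cox4 to Cox8 or Atp5, or is Sdha, Sdhb, Sdhc or Sdhd, with 1 probe per gene, the one with the highest mean over all 54 arrays. This gave 83 genes (87 probes) of the 18773 single-name genes on the array, called the members below, and 5 probes that carry several names were left out. The members comprised 7 core subunits, 26 accessory subunits and 4 assembly factors of complex I (Ndufaf1 to Ndufaf4), 4 genes of complex II, 7 of complex III, 15 of complex IV and 15 of complex V. The other 5 share the symbol pattern but encode no subunit of a complex: Atp5s (now Dmac2l), Atp5sl (now Dmac2), Cox4nb (now Emc8), Cox6c1 (a Cox6c pseudogene) and Cox7a2l, which takes part in joining complexes III and IV.

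In the inner mitochondrial membrane, complex I (NADH dehydrogenase) and complex II (succinate dehydrogenase) pass electrons to ubiquinone, complex III passes them to cytochrome c, and complex IV (cytochrome c oxidase) to oxygen. Complexes I, III and IV pump protons, and complex V, ATP synthase, uses the resulting gradient to make ATP. A few subunits of complex IV and the c-subunit of complex V are encoded by several genes whose use differs between tissues. Muscle carries a dense set of these complexes, and many of their genes are controlled together by the factors NRF1, GABPA, YY1 and ERR-alpha with the coactivators PGC-1alpha and PGC-1beta.

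Rats ate standard chow, a high-fructose diet (HFrD) or HFrD with nordihydroguaiaretic acid (HFrD-NDGA), a lignan from the creosote bush. Each diet had a group without and a group with the label INS, whose meaning the labels do not state, so that 3 tissues and 6 groups gave 18 groups of 3 arrays. The submitters' treatment protocol gives 16 weeks of diet and 2.5 g of NDGA, while the series' design text gives 8 weeks and 2.4 g per kg of diet. According to the study's methods, RNA of the rats of a group was pooled in equal amounts before hybridization. The 3 arrays of a group are therefore repeats of 1 pool, so p-values speak of array error and say nothing of the variation among rats. A shift in a tissue's cell types and a change within its cells cannot be told apart in such RNA.

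Arrays were comparable but not equal in signal: between 49.3 and 63.2% of probes were detected on an array, and the median intensity of an array ran from 71 to 193. Of the 83 members, 71 were detected on all 54 arrays and 4 on none (Cox6c1, Cox8c, Ndufc2 and Uqcrq), while 11 reached the scanner's ceiling on at least 1 array. Intensities were quantile-normalized within a tissue, or over all 54 arrays where tissues were compared, and put on the log2 scale after a floor of 16. No gene was filtered out, and a gene was called at a Benjamini-Hochberg adjusted p under 0.05 in a limma fit over 19802 entries. These entries, called all genes here, were the 18773 single-name genes and those that carry several names. The members were bright, with a median rank between the 96.4 and 98.9 percentile of an array. Shares over all genes include genes not detected, so they are not shares of equally bright genes. The median SD of a member between the arrays of a group was 0.11 log2 units for the liver arrays, 0.10 for muscle and 0.08 for fat. The tissues carried their own markers: 10 hepatocyte genes summed to between 469900 and 570200 in liver, 11 fast fibre genes to between 622900 and 704300 in muscle, and 6 white adipocyte genes to between 303500 and 360300 in adipose tissue. The choice of scaling moved the median change of all genes, in adipose tissue on HFrD against chow for example from -0.11 to -0.47 with each array centred on its median and to 0.00 with no scaling. The split of calls is therefore also given under both other scalings.

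The 3 promoters below show the letters found near the start of a pair of muscle-type complex IV genes, Cox6a2 and Cox8b, and of the widely expressed counterpart of Cox8b, Cox8a, since this pair of isoforms showed the greatest tissue difference of the set. They are RefSeq sequences of the GRCr8 assembly, from 250 bases before to 50 bases after the start, written 5′ to 3′ with the matches in capitals. The Cox6a2 window (chr1:192219667-192219966, minus strand) held 1 match to the E-box CAGCTG and 1 to the MEF2 letters (CTA, any 4 bases, TAG). That of Cox8b (chr1:205408224-205408523, minus strand) held 2 matches to CAGCTG and 1 to TATAAA. That of Cox8a (chr1:213833574-213833873, minus strand) held 2 matches to the GABPA letters CCGGAAGT and 1 to the YY1 letters AAGATGGC, all of them on the opposite strand.
Cox6a2: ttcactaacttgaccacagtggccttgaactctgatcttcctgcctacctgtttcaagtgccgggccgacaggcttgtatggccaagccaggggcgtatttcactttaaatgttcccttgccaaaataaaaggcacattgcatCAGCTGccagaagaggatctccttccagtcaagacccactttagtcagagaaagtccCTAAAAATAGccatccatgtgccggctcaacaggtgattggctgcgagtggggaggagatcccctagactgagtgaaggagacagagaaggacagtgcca
Cox8b: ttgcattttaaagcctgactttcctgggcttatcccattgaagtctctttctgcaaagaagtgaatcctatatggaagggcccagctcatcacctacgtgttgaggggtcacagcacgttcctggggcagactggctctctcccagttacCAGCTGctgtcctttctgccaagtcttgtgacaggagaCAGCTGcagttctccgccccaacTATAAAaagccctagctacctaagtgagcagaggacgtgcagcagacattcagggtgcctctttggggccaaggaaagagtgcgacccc
Cox8a: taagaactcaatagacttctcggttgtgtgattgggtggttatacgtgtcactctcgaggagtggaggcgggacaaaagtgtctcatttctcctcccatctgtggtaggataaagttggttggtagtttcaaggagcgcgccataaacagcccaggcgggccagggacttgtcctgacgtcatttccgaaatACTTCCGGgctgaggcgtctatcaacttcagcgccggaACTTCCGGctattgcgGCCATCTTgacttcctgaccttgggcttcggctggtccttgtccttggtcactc
Of the members, 72 had such a window and 11 had none. Letters of NRF1 (GCGC, any base, TGCGC) stood in 18.1% of the members' windows against 4.25% of all 33469 windows, those of YY1 in 19.4% against 3.17%, those of GABPA in 11.1% against 3.81%, and those of ERR (TCAAGGTCA) in 2.78% against 0.433%. At least 1 of these 4 was present in 32 members, or 44.4%, against 10.7% of all windows. The MEF2 letters stood in 2.78% against 3.84%, CAGCTG in 16.7% against 15.1%, and TATAAA in 5.56% against 14.2%. Both strands were searched, matches of different motifs could overlap, and a match is a description of the letters only.

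Chow muscle carried more mRNA for most of the respiratory chain than chow liver. On the scale of all 54 arrays, 72 of the 83 members were higher and 3 lower in muscle, against 37.4% higher and 33% lower over all genes tested, and the median difference of the members was 1.05 log2 units against 0.00 over all genes. With centring the split was 78 and 3, and with no scaling 69 and 4. All 7 core subunits of complex I, all 4 genes of complex II and all 15 of complex V were higher, with median differences of 1.48, 1.03 and 0.94, and so were 24 of 26 accessory subunits of complex I (median 1.12), 6 of 7 genes of complex III (1.24) and 9 of 15 of complex IV (0.95), where 3 were lower.

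Among the core subunits, Uqcrfs1, the Rieske iron-sulfur protein of complex III, stood at 15.30 in chow muscle and 13.45 in chow liver, a 3.59-fold difference (log2 1.84 ± 0.06 SE, adjusted p = 2.5e-27). Ndufs1, the largest subunit of complex I, read 14.79, 14.67 and 14.78 on the chow muscle arrays, between 12.91 and 13.08 on the chow liver arrays and 13.22, 13.32 and 13.30 on the chow adipose arrays. The muscle arrays were thus well above both other tissues (log2 1.75 ± 0.06 for muscle against liver, adjusted p = 2.2e-26), and the adipose arrays were slightly above liver without overlap (log2 0.28 ± 0.06, adjusted p = 5e-05). Cox5a, a nuclear subunit of complex IV, differed by 1.56 between muscle and liver, Uqcrc1, a core protein of complex III, by 1.51, Atp5c1, the gamma subunit of ATP synthase, by 1.34, and Ndufv1, which binds NADH, by 1.29. Smaller differences were measured for Atp5a1 and Atp5b, the alpha and beta subunits (1.05 and 0.62), for Sdha and Sdhb, the catalytic part of complex II (0.95 and 0.86), for Cox5b (1.03) and for Uqcrc2 (0.99). Cox4i1 read 15.93 in muscle and 15.78 in liver and was not called (adjusted p = 0.16), with 2 of the 3 chow muscle arrays at the ceiling.

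Complex I assembly factors showed some of the wider tissue differences: Ndufaf4 was higher in muscle than in liver by 2.70 ± 0.26, Ndufaf3 by 1.92 ± 0.07 and Ndufaf2 by 1.19 ± 0.08, while Ndufaf1 differed by 0.17 ± 0.16 and was not called (adjusted p = 0.37). In the median, chow adipose tissue lay between liver and muscle. Against liver, 55 members were higher and 8 lower (37.3% and 32.3% of all genes), with a median difference of 0.33. The split was 52 and 1 with centring and 39 and 10 with no scaling. Against adipose tissue, muscle was higher for 63 members and lower for 6 (33.2% and 32.7% of all genes), with a median difference of 0.71 (71 and 6 with centring, 63 and 10 with no scaling). Atp5g1, 1 of the 3 c-subunit genes of ATP synthase, broke the order: it was lower in adipose tissue than in liver by 1.43 ± 0.09 and higher in muscle than in adipose tissue by 2.37 ± 0.09 (adjusted p = 5.6e-25). Its counterparts Atp5g2 and Atp5g3, which encode the same mature peptide, differed between muscle and adipose tissue by 1.25 ± 0.07 and by 0.10 ± 0.11 (adjusted p = 0.48 for Atp5g3).

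**Figure D1:**
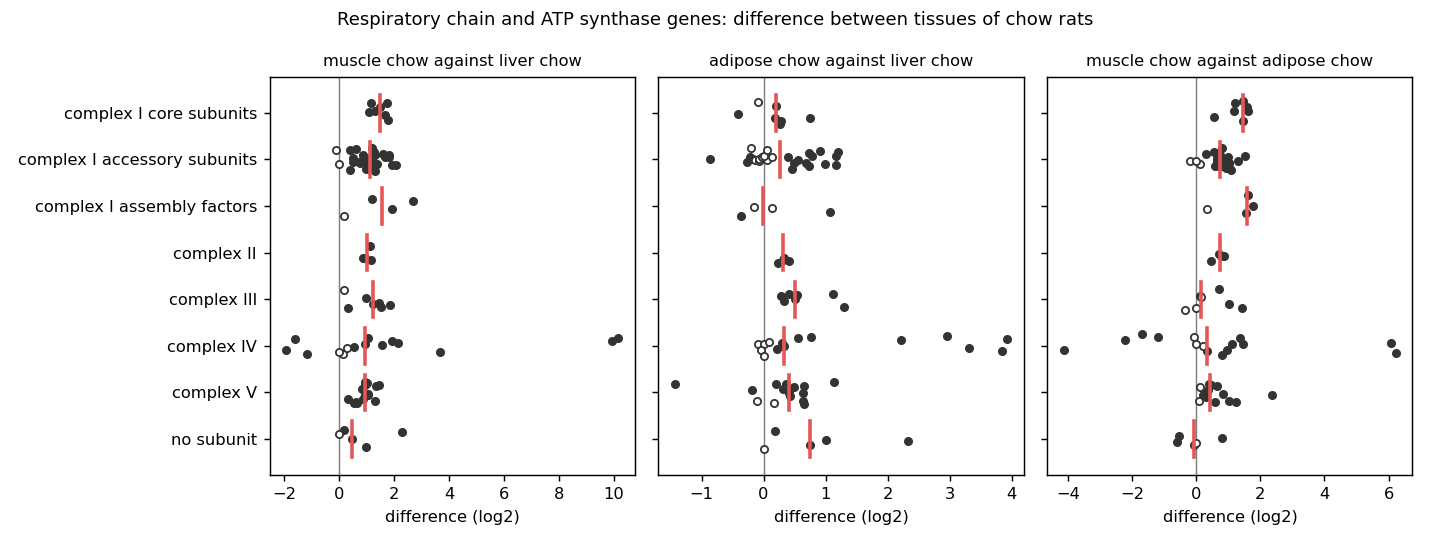
Each point is 1 of the 83 members, placed by its log2 difference between tissues of chow rats (3 panels, horizontal axis) and by its complex (vertical axis, jittered); filled points were called, open points were not, and the red bar is the median of the complex. Most points lie to the right of 0 for muscle against liver, the 3 called lower being Cox6a1, Cox8a and Cox6b2, and Cox6a2 and Cox8b lie far to the right.

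The isoforms of complex IV divided the tissues most sharply. Cox6a2 and Cox8b, the forms used by heart and skeletal muscle, were not above background on the chow liver arrays (Cox6a2 5.43, 5.78 and 5.96, and Cox8b 5.91, 5.68 and 5.96). On the chow muscle arrays Cox6a2 read 15.60, 15.72 and 15.62, and Cox8b read 16.00 on each, at the ceiling. Measured against the lowest signal detected on the liver arrays, Cox6a2 was at least 774-fold and Cox8b at least 988-fold higher in muscle (adjusted p = 5.3e-39 and 5.3e-43).

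Their widely expressed counterparts ran the other way. Cox6a1 read 13.71, 13.68 and 13.65 in chow muscle, 15.52, 15.53 and 15.78 in chow liver and 15.86, 15.93 and 15.93 in chow adipose tissue, and gave a log2 difference of -1.93 ± 0.06 for muscle against liver and -2.23 ± 0.06 against adipose tissue (adjusted p = 2.4e-26 and 3.6e-28). Cox8a differed by -1.59 ± 0.11 between muscle and liver and was at least 3.21-fold lower in muscle than in adipose tissue, where all 3 chow arrays were at the ceiling. Cox6b2, known as the testis form of subunit 6b, was higher in chow adipose tissue than in liver by 2.96 ± 0.14 and at least 11.5-fold higher than in muscle, where it was not above background. Cox4i2, the form of subunit 4 found in lung and controlled by oxygen, was at least 2.53-fold higher in adipose tissue than in liver. Ndufa4, once assigned to complex I and now counted with complex IV, was at least 8.10-fold higher in muscle than in liver.

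**Figure D2:**
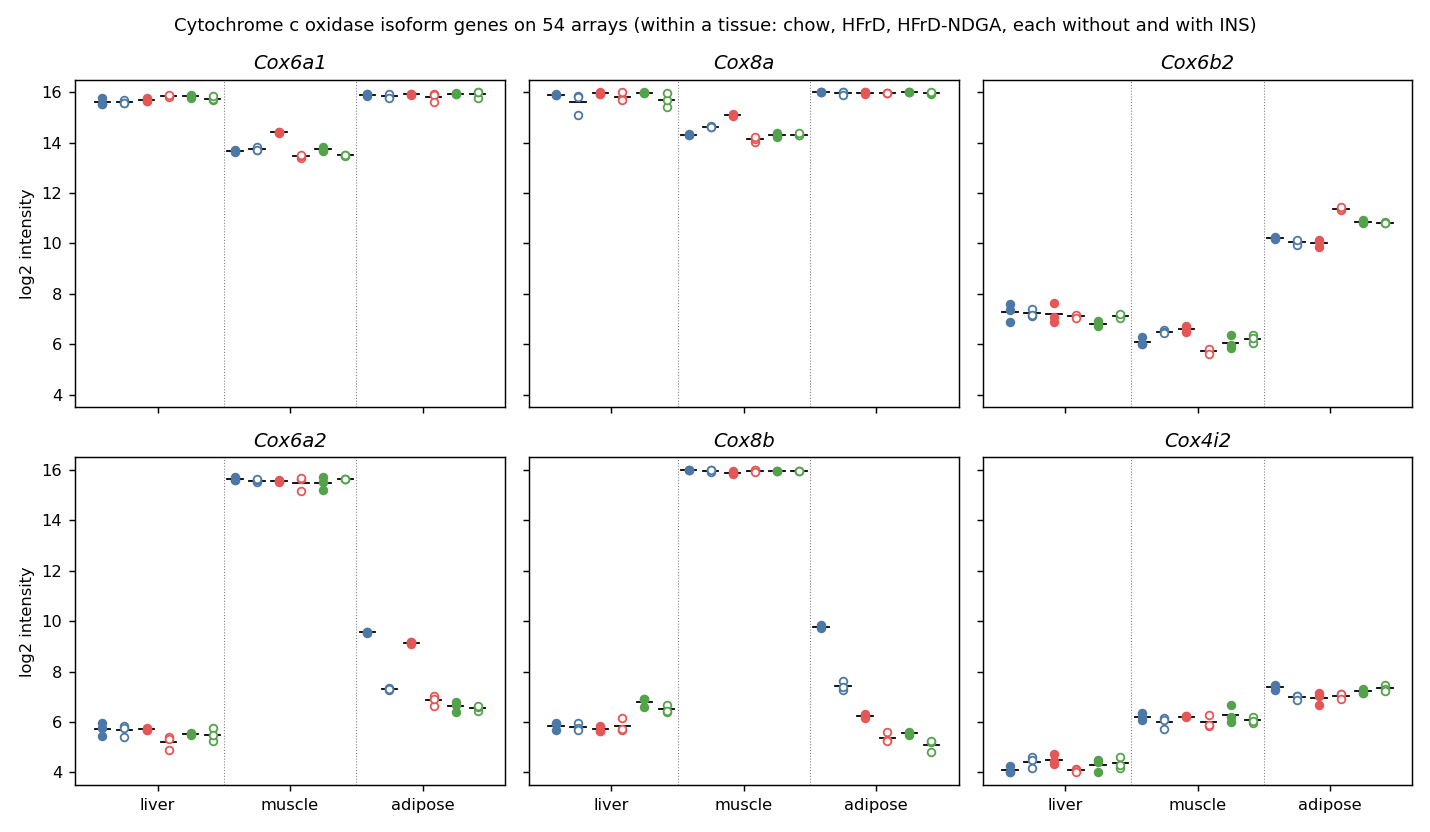
Log2 intensity (vertical axis, all 54 arrays normalized together) of 6 complex IV isoform genes on every array, by tissue; within a tissue the groups run chow, chow INS, HFrD, HFrD INS, HFrD-NDGA and HFrD-NDGA INS, with open points for INS and a bar at the group mean. Cox6a2 and Cox8b sit at 15.17 to 16.00 in muscle, at 4.89 to 6.92 in liver, and between 4.82 and 9.83 in adipose tissue, while Cox6a1 and Cox8a run lower in muscle than elsewhere, with HFrD muscle the highest of the muscle groups.

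Within the tissues, 24 comparisons of diets and of INS against none gave 531 calls in 1992 tests of members. This pooled count is not read as a trait of the members, and the shares over all genes are given with each comparison below. Of the 531 calls, 11 reached 2-fold with both groups above background, and they fell on 6 genes: Cox6a2, Cox8b, Cox6b2, Cox6a1, Cox8a and Ndufaf4. No share over all genes is given for this 2-fold count, so whether it is low or high for the array is not known. Atp5g3, Cox4i1, Cox6c1, Cox8c, Ndufc2 and Uqcrq were called in none of the 24, the last 4 being the genes detected on no array.

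**Figure D3:**
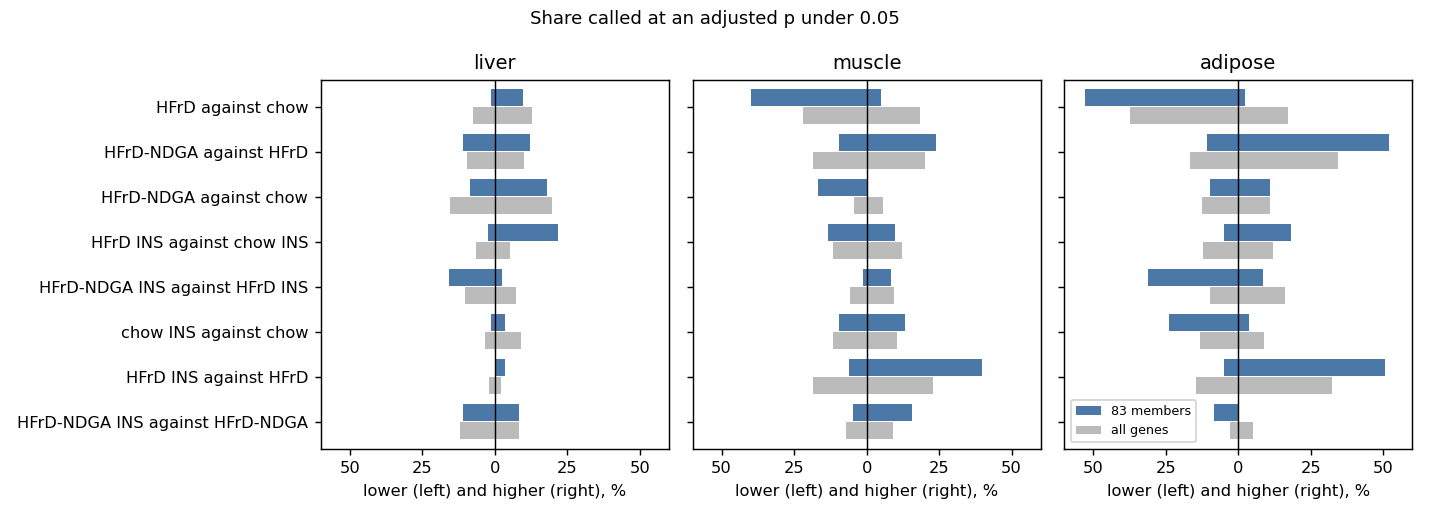
Share of the 83 members (blue) and of all genes tested (grey) called lower (left of 0) or higher (right of 0) in each of 8 comparisons per tissue, in percent. On the lower side blue exceeds grey, among others, for HFrD against chow in muscle (39.8% against 22%) and adipose tissue (53% against 37.4%). The same holds for HFrD-NDGA INS against HFrD INS in adipose tissue (31.3% against 9.96%) and HFrD-NDGA against chow in muscle (16.9% against 4.24%). On the higher side it does so, among others, for HFrD INS against HFrD in muscle and adipose tissue. Liver HFrD INS against chow INS is another such case (21.7% against 5.12%). Blue falls short of grey in others, such as liver HFrD against chow on both sides. The grey bars include genes that were not detected, while 71 of the 83 members were detected on all 54 arrays.

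In muscle of rats on HFrD, most called members were lower than on chow, with 3 complex IV isoforms moving the other way, 1 of them near background. Against chow, 33 members were lower and 4 higher, 39.8% and 4.82% of the set against 22% lower and 18.4% higher over all genes. The median change of the members was -0.17, against -0.01 over all genes. Centring gave 49 lower and 3 higher, and no scaling 12 and 6. Complex I carried much of this, with 5 of 7 core and 12 of 26 accessory subunits lower, while 3 of 7 genes of complex III, 5 of 15 of complex IV, 3 of 15 of complex V and 1 of 4 of complex II were lower.

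The greatest falls were in Ndufaf3, by 0.66 ± 0.04, Ndufaf2, by 0.65 ± 0.09, and Cox7b, a small subunit of complex IV, by 0.64 ± 0.08 (adjusted p = 1e-08, 6.7e-05 and 2.5e-05). Ndufaf3 read 11.70, 11.67 and 11.64 on the chow arrays, 11.01, 10.99 and 11.02 on HFrD and 11.54, 11.46 and 11.45 on HFrD-NDGA. The HFrD arrays were thus lowest and overlapped neither other group. Uqcrb, a small subunit of complex III, fell by 0.63 and Ndufa4 by 0.57. Of the core subunits named above, Uqcrfs1 fell by 0.35, Cox5b by 0.25 and Ndufv1 by 0.13. Cox5a fell by 0.28 but lost its call without chow replicate 2 or 3 or HFrD replicate 1, with a change of -0.18 at the least.

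Opposite to these, Cox6a1 read 13.50, 13.48 and 13.44 on the chow muscle arrays, 14.31, 14.22 and 14.30 on HFrD, 13.67, 13.50 and 13.47 on HFrD-NDGA, and 13.16, 13.25 and 13.31 on HFrD INS. It rose on HFrD by 0.81 ± 0.06 (1.75-fold, adjusted p = 7.9e-08) and was the highest in that group alone. Cox8a followed the same course at 14.16, 14.14 and 14.19 on chow, 14.99, 14.98 and 15.06 on HFrD, 14.25, 14.11 and 14.07 on HFrD-NDGA, and 13.86, 13.99 and 14.07 on HFrD INS, a rise of 0.84 ± 0.05 on HFrD (adjusted p = 3.7e-08). Cox6b2 was also called higher on HFrD (adjusted p = 0.0051), detected on 3 HFrD arrays and 0 chow arrays. Its HFrD mean of 6.23 lay near the lowest detected signal of the chow arrays (6.21 to 6.44), so no fold is given. It was called lower than on HFrD in the HFrD-NDGA and HFrD INS pools, where it was again not detected. Ndufs5, an accessory subunit of complex I, rose by 0.35. The muscle-type counterpart Cox6a2 read between 15.50 and 15.70 on the chow and HFrD arrays and was not called (adjusted p = 0.76). Cox8b was at the ceiling on all 3 chow arrays, so that a rise could not have been measured.

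Other lists moved with this muscle pool. All 8 slow fibre genes were higher on HFrD than on chow, their sum running from 410000 to 432800 against 141600 to 144800, while 11 fast fibre genes summed to between 651000 and 666800 against 673300 to 684900. Of 8 macrophage genes 6 were higher and 1 lower (summed 10320 to 10990 against 2870 to 2949), 3 of 6 white adipocyte genes were higher (12310 to 13360 against 6372 to 6769), and 9 of 10 hepatocyte genes were lower (3743 to 3976 against 17200 to 18210). The sum of 5 brown adipocyte genes was 3786 to 3855 against 400.1 to 419.2, from Cidea alone, since Ucp1, Elovl3, Dio2 and Ppargc1a were detected on no array of either group, and Alas2, an erythroid gene, was at 765.3 to 846.9 against 268.3 to 302.3. The part of these shifts in the members' changes was not tested. The slow fibre sum was as high in chow INS muscle (418500 to 427100) and HFrD-NDGA INS muscle (408600 to 415800). In chow INS muscle Cox8a was higher than in chow by 0.35, and Cox6a1 differed by 0.08 (adjusted p = 0.38).

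With NDGA added to HFrD, 20 members of muscle were higher and 8 lower than on HFrD (20.1% and 18.4% of all genes), with a median change of 0.04. It was 0.15 with centring (10 higher, 5 lower), where the median of all genes was 0.17, and -0.09 with no scaling (1 higher, 11 lower), where that of all genes was -0.07. Ndufs7, a core iron-sulfur subunit of complex I, rose by 0.55 ± 0.07, Ndufaf3 by 0.48 ± 0.04 and Cox7b by 0.47 ± 0.08, and Cox8a and Cox6a1 fell by 0.86 ± 0.05 and 0.73 ± 0.06 (adjusted p = 3.3e-08 and 2.2e-07). In the same comparison 9 of 10 hepatocyte genes were higher (28650 to 28980 against 3743 to 3976), all 8 slow fibre genes were lower (245300 to 255300 against 410000 to 432800), 6 of 8 macrophage genes were lower and 1 higher (4263 to 4830 against 10320 to 10990), and the brown adipocyte sum was 600.5 to 757.4 against 3786 to 3855, and their part was not tested. HFrD-NDGA against chow gave 14 lower and 0 higher (4.24% and 5.7% of all genes), with Ndufb10, an accessory subunit of complex I, lowest at -0.62 ± 0.11. Centring gave 12 and 0, no scaling 7 and 0, and leaving out chow replicate 1, 2 or 3 or HFrD-NDGA replicate 1 left 9, 8, 7 or 9 lower. Without HFrD-NDGA replicate 2, 1 member was higher.

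Among the muscle groups with INS, HFrD gave 8 higher and 11 lower members than chow (12.1% and 11.6% of all genes; 5 and 6 with centring, 3 and 5 with no scaling). Uqcrb rose by 0.50 ± 0.04 and Ndufs5 fell by 0.81 ± 0.06, each opposite in sign to its change between the groups without INS. The slow fibre sum turned as well, at 172600 to 175100 on HFrD INS against 418500 to 427100 on chow INS. It was 408600 to 415800 on HFrD-NDGA INS. The white adipocyte sum was 7374 to 7654 on HFrD INS against 14490 to 15620 on chow INS. The part of these shifts in the members' changes was not tested. The count of higher members was 3 to 5 without chow INS replicate 1 or 2 or any 1 of the HFrD INS replicates. HFrD-NDGA INS against HFrD INS gave 7 higher and 1 lower (9.51% and 5.86%; 3 and 0 with either other scaling), led by Ndufs5 at 0.61 ± 0.06, with 4 higher once HFrD INS replicate 1 or HFrD-NDGA INS replicate 1 or 3 was left out and 2 lower without HFrD INS replicate 2 or 3.

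Comparing INS with none on the same diet, HFrD muscle showed the reverse of the HFrD pool's pattern, with 33 members higher and 5 lower (22.9% and 18.6% of all genes, median 0.16 against 0.02). Centring gave 40 and 4, but no scaling gave 5 and 6. Ndufa4 rose by 0.81 ± 0.07, Uqcrb by 0.75 ± 0.04 and Cox7b by 0.69 ± 0.08, and Cox6a1 and Cox8a fell by 1.04 ± 0.06 and 1.03 ± 0.05. All 8 slow fibre genes were lower here (172600 to 175100 against 410000 to 432800), with 6 of 8 macrophage genes (2678 to 2939 against 10320 to 10990) and 4 of 6 white adipocyte genes (7374 to 7654 against 12310 to 13360), 9 of 10 hepatocyte genes were higher (6655 to 6853 against 3743 to 3976), and the brown adipocyte sum was 407.4 to 491.2 against 3786 to 3855, and their part was not tested. This comparison shares its HFrD arrays with HFrD against chow and with HFrD-NDGA against HFrD, so the 3 are not independent. On chow, INS gave 11 higher and 8 lower (10.5% and 11.6%; 3 and 16 with centring, 4 and 8 with no scaling; 6 higher without chow INS replicate 2 or 3, 5 lower without chow replicate 3), with Atp5sl at 0.63 ± 0.09. On HFrD-NDGA it gave 13 higher and 4 lower (9.28% and 6.96%; 27 and 0 with centring, 7 and 0 with no scaling), with Ndufa4 at 0.55 ± 0.07 and Atp5h, a subunit of the peripheral stalk of ATP synthase, at 0.55 ± 0.12. The 4 lower became 1 or 2 when HFrD-NDGA replicate 1 or 2 or any HFrD-NDGA INS replicate was left out. Slow fibre sums were higher with INS on chow (418500 to 427100 against 141600 to 144800) and on HFrD-NDGA (408600 to 415800 against 245300 to 255300). Hepatocyte sums were lower with INS on chow (9468 to 9961 against 17200 to 18210) and on HFrD-NDGA (3867 to 4087 against 28650 to 28980). Their part was not tested.

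**Figure D4:**
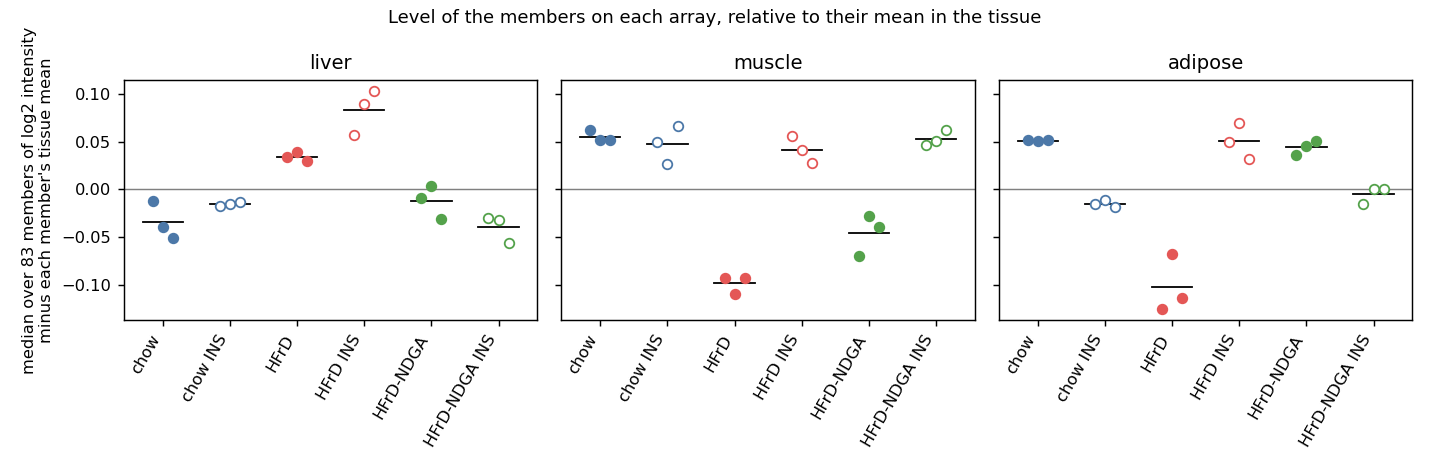
Median over the 83 members of log2 intensity minus each member's mean in the tissue (vertical axis, log2 units), 1 point per array and a bar at the group mean, with open points for INS. The HFrD arrays without INS are the lowest in muscle and adipose tissue, between -0.07 and -0.13 in adipose tissue and between -0.09 and -0.11 in muscle, and the HFrD INS arrays are the highest in liver.

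In adipose tissue the HFrD pool was again low for all complexes, beside many other genes that were lower. Against chow, 44 members were lower and 2 higher, or 53% and 2.41% of the set, against 37.4% lower and 16.9% higher over all genes. The median change was -0.16 against -0.11 over all genes, and the difference turned to 0.053 above all genes when only detected genes were tested. Centring gave 80 lower and 0 higher, no scaling 33 and 1. All 4 complex I assembly factors were lower, with 5 of 7 core and 14 of 26 accessory subunits of complex I, 2 of 4 genes of complex II, 3 of 7 of complex III, 7 of 15 of complex IV and 8 of 15 of complex V.

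Sdhb, the iron-sulfur subunit of complex II, read 14.31, 14.27 and 14.26 on chow, 13.54, 13.57 and 13.87 on HFrD and 14.39, 14.25 and 14.21 on HFrD-NDGA. It was lower on HFrD than on chow by 0.62 ± 0.10 (adjusted p = 0.00016), and the HFrD arrays overlapped neither other diet. Ndufs4, an accessory subunit of complex I, read 13.69, 13.72 and 13.83 on chow, between 13 and 13.30 on HFrD and 13.70, 13.99 and 13.78 on HFrD-NDGA, again lowest on HFrD, by 0.60. Ndufaf2 fell by 0.57 and Ndufb5 by 0.50. Atp5s, a coupling factor of ATP synthase, read 7.68, 7.67 and 7.56 on chow and 6.88, 6.90 and 6.66 on HFrD and was called lower, but it was detected on 2 of 3 arrays in each group and its HFrD values lay at the lowest detected signal of those arrays (6.71 to 6.84), so the size of its fall is not given. The 2 higher members were Atp5sl, an assembly factor of complex I, at 0.43 ± 0.06 and Cox7b at 0.23 ± 0.07, and both changed sign with centring. Cox7b also lost its call without chow replicate 3 or HFrD replicate 1 or 2. Without HFrD replicate 3 there were 4 higher members, and without chow replicate 3 or HFrD replicate 2 there was 1.

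With NDGA added, 43 members of adipose tissue were higher and 9 lower than on HFrD (34.3% and 16.7% of all genes), with a median change of 0.16 against 0.10 over all genes and 48 and 3 with either other scaling. Complex I led, with 6 of 7 core and 17 of 26 accessory subunits higher, and complex IV was split at 3 and 3. Cox6b2 rose by 0.78 ± 0.06 (adjusted p = 1.5e-07), Ndufs4 by 0.67 ± 0.10, Sdhb by 0.62, Ndufa10 by 0.59 and Ndufa8 by 0.57, the last 2 being accessory subunits of complex I. Atp5h fell by 0.49 ± 0.08 and Ndufaf4 by 0.46 ± 0.11. Set against chow, the HFrD-NDGA pool gave 9 higher and 8 lower (10.8% and 12.5%; 0 and 18 with centring, 15 and 4 with no scaling), with a median of 0.00. The comparisons of HFrD with chow and with HFrD-NDGA share the HFrD arrays and are not independent.

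Apart from these shifts stood the muscle-type isoforms, which made the widest changes of the set in adipose tissue. Cox8b read 10.18, 10.17 and 10.26 on chow, 7.61, 8.02 and 7.75 on chow INS, 6.58, 6.53 and 6.43 on HFrD, 5.85, 5.49 and 5.49 on HFrD INS, 5.84, 5.79 and 5.74 on HFrD-NDGA, and 5.43, 5.46 and 5.06 on HFrD-NDGA INS. Only the chow pools were above background, and Cox8b was at least 10.7-fold lower on HFrD and at least 15-fold lower on HFrD-NDGA than on chow (adjusted p = 6.3e-11 and 4.3e-11). Between the INS pools it was at least 3.31-fold lower on HFrD than on chow, and chow INS was lower than chow by 2.41 ± 0.12.

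Cox6a2 did not keep that order. It read between 9.97 and 10.02 on chow, 9.53, 9.61 and 9.59 on HFrD, 6.67, 7.10 and 6.98 on HFrD-NDGA, 7.70, 7.63 and 7.65 on chow INS, 6.94, 7.36 and 7.22 on HFrD INS, and 6.74, 6.88 and 6.94 on HFrD-NDGA INS. HFrD was thus 0.42 below chow without overlap, and the 4 other pools were lower still: HFrD-NDGA gave a log2 change of -2.66 ± 0.11 against HFrD and of -3.08 ± 0.11 against chow, and INS against none gave -2.34 ± 0.11 on chow and -2.40 ± 0.11 on HFrD (adjusted p = 5e-10, 3.4e-10, 3.5e-09 and 1.2e-09).

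Fast muscle fibre genes moved in the same pools. The sum of 11 of them was 46570 to 47910 in chow adipose tissue, 7190 to 7861 on HFrD, 5854 to 6097 on chow INS, 2227 to 2460 on HFrD INS, 1917 to 2073 on HFrD-NDGA and 1678 to 1823 on HFrD-NDGA INS, against 622900 to 704300 in muscle. All 11 were lower on HFrD than on chow, and 6 of 8 slow fibre genes were lower with 1 higher. Alas2, the 1 gene measured of the erythroid list used here, stood at 34620 to 36770 in the HFrD pool, 2743 to 3190 on chow and 2187 to 5011 in the other pools. White adipocyte sums lay between 303500 and 360300 throughout. The part of these genes in the members' changes was not tested. Between chow and HFrD, Cox6a2 fell by 0.42 ± 0.11 (adjusted p = 0.0048).

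**Figure D5:**
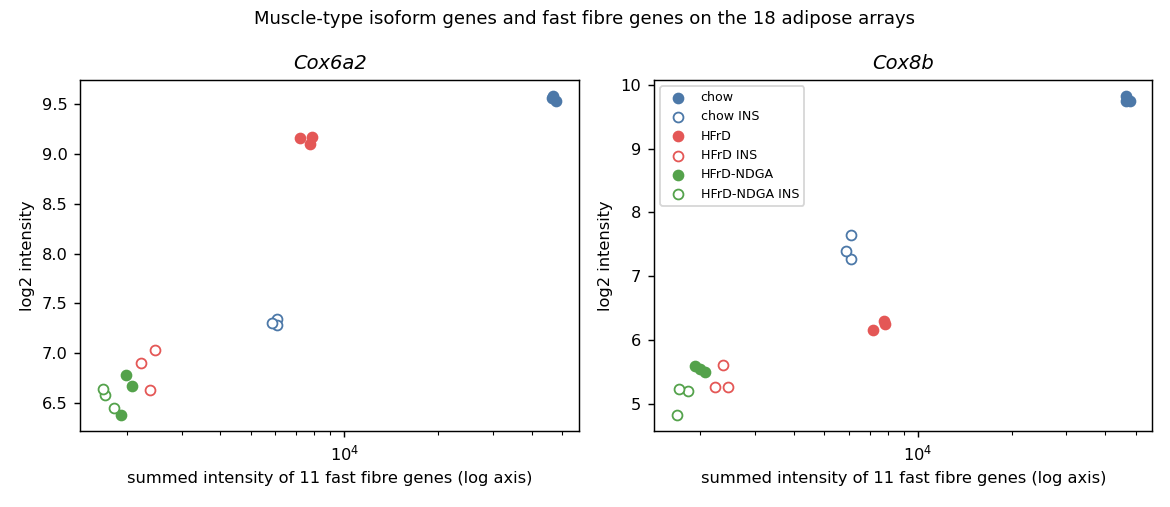
Log2 intensity of Cox6a2 (left) and Cox8b (right) on the 18 adipose arrays (vertical axis, all 54 arrays normalized together) against the summed intensity of 11 fast fibre genes (horizontal axis, logarithmic), coloured by diet with open points for INS. The 3 chow arrays lie at the upper right for both genes, and the 3 HFrD arrays, at sums between 7190 and 7861, are at 9.10 to 9.17 for Cox6a2 but at 6.16 to 6.30 for Cox8b.

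Where the adipose pools carried INS, HFrD gave 15 higher and 4 lower members than chow (11.8% and 12.3% of all genes), in contrast to the groups without INS. The split depended on the scaling, with 1 and 5 for centring and 59 and 1 for no scaling, and 8 were higher without HFrD INS replicate 2. Cox6b2 rose by 1.21 ± 0.06, from 10.47, 10.36 and 10.55 to 11.63, 11.65 and 11.74 (adjusted p = 3.4e-09). HFrD-NDGA INS against HFrD INS gave 7 higher and 26 lower (16% and 9.96%; 4 and 3 with centring, 4 and 13 with no scaling). Ndufaf4 fell by 1.19 ± 0.11, Atp5h by 0.87 ± 0.08 and Ndufb6, an accessory subunit of complex I, by 0.57 ± 0.09. Ndufaf4 and Atp5h were lower with NDGA in both states of INS. The hepatocyte sum was 12440 to 13070 on HFrD-NDGA INS against 34770 to 36700 on HFrD INS, and its part was not tested.

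INS against none on HFrD gave 42 higher and 4 lower members in adipose tissue (32.1% and 14.6% of all genes, median 0.16 against 0.10; 26 and 3 with centring, 67 and 3 with no scaling). Cox6b2 rose by 1.24 ± 0.06, Ndufb5 by 0.59 ± 0.06 and Sdhb by 0.39. Beside them, the hepatocyte sum was 34770 to 36700 on HFrD INS against 18720 to 21190 on HFrD. The fast fibre sum was 2227 to 2460 against 7190 to 7861 and Alas2 3767 to 4572 against 34620 to 36770. Their part was not tested. On chow, INS gave 3 higher and 20 lower (8.87% and 13.3%; 0 and 30 with centring, 0 and 7 with no scaling), and the count lower was 10 without chow replicate 1 and 13 without chow replicate 2. The 3 higher became 1 without chow replicate 1 or chow INS replicate 1 or 3, and 0 without chow replicate 3. Besides Cox8b and Cox6a2, Ndufs7 fell by 0.31, and Ndufv1 by 0.33, or by 0.19 and no longer called without chow replicate 1, beside a macrophage sum of 41800 to 45150 against 20400 to 21700 on chow. On HFrD-NDGA, INS gave 0 higher and 7 lower (5.15% and 3.09%; 0 and 1 with centring, 8 and 1 with no scaling), led by Ndufaf1 at -0.37 ± 0.09, which lost its call without HFrD-NDGA replicate 2 or 3 or HFrD-NDGA INS replicate 1 or 3. That count was 2 to 4 without any 1 HFrD-NDGA replicate or without HFrD-NDGA INS replicate 1 or 3.

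For HFrD against chow, liver gave fewer called members, higher and lower together, than muscle or adipose tissue. Its shares over all genes were also smaller, 13% higher and 7.64% lower. They were 18.4% and 22% for muscle, 16.9% and 37.4% for adipose tissue. The order did not hold throughout: HFrD-NDGA against chow gave 15 higher and 7 lower members in liver. Muscle had 0 and 14 there, adipose tissue 9 and 8, and liver again had the largest shares over all genes. On HFrD 8 liver members were higher and 1 lower than on chow, 9.64% and 1.2% of the set. The median of the members was 0.06 (27 and 0 with centring, 6 and 0 with no scaling). Uqcrc1 read 13.68, 13.67 and 13.50 on chow and 13.92, 13.92 and 13.93 on HFrD, a rise of 0.31 ± 0.05 without overlap (adjusted p = 0.0016). Ndufs3, a core subunit of complex I, rose by 0.36 ± 0.11 and Sdhb by 0.30, and both lost their call without chow replicate 3 (changes of 0.24 and 0.21) or HFrD replicate 2 or 3. Sdha rose by 0.26 and lost its call without any 1 of the 6 arrays. Ndufaf4 rose by 1.12 ± 0.35 (adjusted p = 0.038) on chow arrays at 7.41, 7.72 and 6.35 and HFrD arrays at 8.19, 8.43 and 8.24. It kept its call only when chow replicate 2 was the array left out, and its change was 0.73 without chow replicate 3, the lowest array. The 8 higher became 2 without HFrD replicate 2 or 3, 4 without HFrD replicate 1 or chow replicate 3, and 5 without chow replicate 1. Of 8 macrophage genes 5 were lower on HFrD (10120 to 10280 against 15950 to 16980), and Alas2 was at 2152 to 2304 against 500.8 to 635.3.

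With NDGA, 10 members of liver were higher and 9 lower than on HFrD (10.1% and 9.47% of all genes). Their median was -0.09 against 0.00 over all genes, -0.16 against -0.08 with no scaling (3 higher, 7 lower) and 0.03 against 0.10 with centring (3 and 0). Atp5h read 12.41, 12.44 and 12.48 on HFrD and 11.72, 11.72 and 11.48 on HFrD-NDGA, a fall of 0.80 ± 0.17 (adjusted p = 0.0046), but 1 chow array stood at 11.91 beside 12.37 and 12.66. Cox7b fell by 0.53 ± 0.13, and Ndufa3, an accessory subunit in the membrane arm of complex I, rose by 0.66 ± 0.10, from 13.93, 14.02 and 13.79 to 14.52, 14.48 and 14.72 (adjusted p = 0.00028). Cox8b, not above background in HFrD liver, was at least 1.48-fold higher with NDGA. Beside it, the brown adipocyte sum was 8027 to 8658 against 1010 to 1072, from Cidea alone (Ucp1, Elovl3, Dio2 and Ppargc1a were detected on no array of either group), 2 of 8 macrophage genes were higher (13500 to 14060 against 10120 to 10280), and Alas2 was at 496.4 to 537.7 against 2152 to 2304, and their part was not tested. Without HFrD replicate 2, 6 members were higher. HFrD-NDGA against chow gave 15 higher and 7 lower (19.7% and 15.5%; 52 and 0 with centring, 12 and 8 with no scaling; 12 lower without chow replicate 3).

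Between the liver pools with INS, HFrD gave 18 higher and 2 lower members than chow, or 21.7% and 2.41% of the set against 5.12% and 6.36% of all genes. No member was called with centring and 13 were higher with no scaling, and 11 and 10 were higher without chow INS replicate 2 and without HFrD INS replicate 3. Ndufa3 rose by 0.55 ± 0.10, Ndufa12, an accessory subunit of complex I, by 0.46 ± 0.04 (adjusted p = 8.1e-06), Sdhc, a membrane anchor of complex II, by 0.46 ± 0.10, Uqcrc1 by 0.40 and Sdhb by 0.37 (not called without chow INS replicate 1 or HFrD INS replicate 1), and Cox7a2l fell by 0.48 ± 0.09. HFrD-NDGA INS against HFrD INS gave 2 higher and 13 lower (7.27% and 10.2%; 1 and 43 with centring, 3 and 5 with no scaling), with Uqcrh, the hinge protein of complex III, falling by 0.56 ± 0.09 and Atp5g1 by 0.49 ± 0.08. Without HFrD-NDGA INS replicate 3, 8 were lower.

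For INS against none in liver, the counts of called members depended on the scaling. On chow 3 were higher and 1 lower (9.22% and 3.22% of all genes; 65 and 0 with centring, 0 and 1 with no scaling), and 0 were higher without chow replicate 1 or chow INS replicate 1 or 3. The count lower was 0 without chow replicate 1 or 3 or chow INS replicate 2 or 3, and 2 without chow replicate 2. On HFrD 3 were higher and 0 lower (2.29% and 2.01%; none with centring, 1 and 0 with no scaling), namely Ndufa3, Ndufa12 and Ndufa8, and 1 was higher without HFrD replicate 1 or HFrD INS replicate 1 or 3. On HFrD-NDGA 7 were higher and 9 lower (8.46% and 11.9%; 1 and 40 with centring, 16 and 1 with no scaling), with Ndufb2 at 0.55 ± 0.13 and Uqcrh at -0.57 ± 0.09, and 4 were higher without HFrD-NDGA replicate 2 or HFrD-NDGA INS replicate 1 or 3.

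Interaction contrasts tested whether these changes differed between states of INS and between tissues. The change on HFrD against chow differed with INS for 43 members of adipose tissue, 34 of muscle and 3 of liver, against 43.5%, 40.3% and 5.24% of all genes. That of HFrD-NDGA against HFrD differed for 44, 23 and 15 members (37.1%, 36.6% and 15.3% of all genes). In adipose tissue 41 of the 43 were more positive with INS for HFrD, where 5712 of all genes were more positive and 2894 more negative, and 41 of the 44 were more negative for NDGA, where 4632 of all genes were more negative and 2721 more positive. Between tissues, without INS, the change on HFrD differed for 36 members between muscle and liver, 38 between adipose tissue and liver and 22 between adipose tissue and muscle (37.9%, 51.6% and 48.3% of all genes). With NDGA the counts were 29, 41 and 33 (35.4%, 39.2% and 46.6%). Between adipose tissue and muscle, 10 of the 22 HFrD differences were positive and 12 negative.

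Counts for other mitochondrial lists can be read beside the shares over all genes. On HFrD against chow in adipose tissue, where 37.4% of all genes were lower and 16.9% higher, 12 of 17 assembly factors of complexes II to V were lower and 1 higher, 10 of 13 electron carriers and feeding enzymes were lower and 0 higher, and 8 of 16 tricarboxylic acid cycle genes were lower and 1 higher. With NDGA added, where 34.3% of all genes were higher, 13, 9 and 10 of them were higher and 0 lower. In muscle on HFrD, where 22% of all genes were lower, the counts were 6 lower and 0 higher, 6 and 1, and 6 and 1. In a list of 8 genes, made of mitochondrial carriers and porins and of Atpif1, 4 were lower and 1 higher in adipose tissue on HFrD. The higher one was Atpif1, the inhibitor of ATP synthase and no carrier or porin, named here after its values were seen. It stood at 12.98 against 12.18 on chow (adjusted p = 3.7e-07) and at 12.26 with NDGA. Cycs, cytochrome c, was lower in adipose tissue on HFrD than on chow, by 0.26, and differed by -0.10 with NDGA (adjusted p = 0.44). Cs, citrate synthase, differed by 0.04 on HFrD (adjusted p = 0.41) and was higher with NDGA than on HFrD, by 0.63. Of the regulators, Tfam, the mitochondrial transcription factor, fell by 0.32 in muscle and by 0.15 in adipose tissue on HFrD and rose by 0.19 in liver. Ppargc1b, PGC-1beta, fell by 0.42 in adipose tissue on HFrD, and with NDGA it fell by 0.63 in muscle and rose by 0.59 in liver. Ppargc1a, PGC-1alpha, was not above background in chow adipose tissue, with a mean of 4.99, and was called higher on HFrD at a mean of 6.19, itself below the lowest detected signal of those arrays (6.71 to 6.84), so that no fold is given. Esrra, ERR-alpha, was not called on HFrD against chow in any of the 3 tissues and was lower with NDGA in adipose tissue, by 0.47, and in liver, by 0.75.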

How the data were processed

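Total RNA of 3 tissues was hybridized by the authors to 1-colour (Cy5) Rat OneArray v1 arrays, 54 in all. The authors deposited whole-number linear intensities, background-subtracted and not normalized between arrays, with a detection p-value and a flag for each spot; the value table of the series held the same numbers (1315332 of 1315332). The study's methods name quantile-type normalization, log2 and analysis of variance. Here intensities were quantile-normalized in limma 3.58.1 (R 4.3.3) within a tissue or over 54 arrays, floored at 16 and put on the log2 scale. Then 6 or 18 group means were fitted (lmFit, eBayes) over 19802 entries, those with several names included. The script was tested on simulated data. A probe was detected at a deposited p under 0.05 and at the ceiling from 65000; where no array of a group detected it, folds are bounds. The members and lists were chosen with earlier results of these data known. All 83 symbols matched RefSeq, 20 under newer names. Named genes were fixed core subunits, isoforms, the 3 widest called rises and falls of each comparison, non-subunits and 6 list genes; other members named in the text were chosen after their values were seen. Scaling, floor, offset, detection, probe choice, test, the arrays in the fit and a 2-fold minimum were varied, and each array was left out in turn. Replicates are numbered in accession order.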

Additional observations from a re-analysis of the deposited data

Results flagged for a closer look

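The effect of a diet differed between states of INS or between tissues, by an interaction contrast at an adjusted p under 0.05, for the following numbers of the 83 members. For HFrD against chow, 43 differed with INS in adipose tissue, 34 in muscle and 3 in liver (43.5%, 40.3% and 5.24% of all genes). For HFrD-NDGA against HFrD the numbers were 44, 23 and 15 (37.1%, 36.6% and 15.3% of all genes). The strongest of them in each comparison, as a log2 difference of INS minus none, were Ndufa3 at 0.66 and Ndufaf3 at -0.74 in liver, Cox8a at -1.38 and 1.06 in muscle, and Cox8b at 1.5 and Cox6a2 at 2.34 in adipose tissue, in each pair HFrD against chow first. Between tissues the number for HFrD against chow was 36 for muscle and liver, 38 for adipose tissue and liver, and 22 for adipose tissue and muscle. Of all genes, 37.9%, 51.6% and 48.3% differed. The widest were Ndufaf4 at -1.40, Cox8b at -3.40 and Cox8b at -3.43, each as the first tissue minus the second. For HFrD-NDGA against HFrD the numbers were 29, 41 and 33 (35.4%, 39.2% and 46.6% of all genes). They were led by Cox8b at -1.03, Cox6a2 at -2.35 and Cox6a2 at -2.44. Cox8b was near or below background in several of these pools, so its log2 differences depend on the floor. With 3 arrays of a group, no array was tested as an outlier. The members' share was near or below that of all genes for INS in muscle, and in liver for HFrD. The same held between adipose tissue and muscle, between adipose tissue and liver for HFrD, and between muscle and liver for NDGA. Those counts are not read as a trait of the members.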

How the results depend on the processing

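No paired analysis was possible because the labels give no replicate numbers. The median change of the members, relative to that of all genes, moved by less than the median SD of a single member between arrays in 309 alternatives. It moved by more in 33. That SD (0.11 in liver, 0.10 in muscle, 0.08 in adipose tissue) is as large as many of these medians. A median within it may thus have changed sign. Muscle HFrD-NDGA against HFrD went from 0.035 to -0.021 with centring, and adipose HFrD-NDGA INS against HFrD INS from -0.035 to 0.039. Centring each array on its median and leaving arrays unscaled gave the same relative medians, and those that moved were, in liver, 0.20 for HFrD against chow, 0.21 for HFrD-NDGA against chow, -0.29 for HFrD-NDGA INS against HFrD INS, 0.17 for chow INS against chow and -0.21 for HFrD-NDGA INS against HFrD-NDGA; in muscle, -0.25 for HFrD-NDGA against chow, -0.17 for chow INS against chow and 0.21 for HFrD-NDGA INS against HFrD-NDGA; in adipose tissue, -0.18 for HFrD against chow, -0.11 for HFrD-NDGA against chow and -0.17 for chow INS against chow; and between tissues 1.21 for muscle against liver, 0.21 for adipose tissue against liver and 0.86 for muscle against adipose tissue. With a floor of 64 the adipose medians were -0.16 for HFrD against chow, 0.16 for HFrD-NDGA against HFrD and 0.16 for HFrD INS against HFrD. With detected genes only they were 0.053 for HFrD against chow and 0.20 for adipose tissue against liver. Leaving out 1 array moved none of these medians by more than that SD (1.02 to 1.08 for muscle against liver, -0.16 to -0.15 for HFrD against chow in muscle, -0.07 to -0.03 in adipose tissue). In 27 cases a named gene lost its call in a comparison when 1 array was left out. The cause was not tested for the signs that turned. With centring these were Ndufa11 0.24 (liver HFrD against chow), Ndufb10 0.058 and Cox7a2l 0.12 (liver HFrD-NDGA against chow), Cox4nb -0.13 (liver HFrD-NDGA INS against HFrD INS), Ndufb8 0.33 (liver chow INS against chow), Ndufb10 -0.077 and Sdha -0.11 (liver HFrD-NDGA INS against HFrD-NDGA), Ndufs7 0.040 and Uqcrfs1 0.093 (muscle, the same pools), Atp5sl -0.058 and Cox7b -0.31 (adipose HFrD against chow), and Cox7a2l -0.050, Atp5o -0.088 and Uqcrc2 -0.16 (adipose chow INS against chow). With no scaling they were Ndufa1 0.018 (adipose HFrD INS against chow INS) and Atp5j2 0.10 (adipose HFrD INS against HFrD). Precision is limited by 3 arrays of 1 pool, by the ceiling for 11 members and by background, beside the 4 never detected, for Atp5s, Cox4i2, Cox6a2, Cox6b2, Cox8b, Ndufa4 and Ndufab1 on some arrays. Cox7a2 was detected on 53 of 54 arrays but was bright, with a mean intensity of 44938.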
